A study of Homo sapiens with 16 samples.

Results

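TTP_H3 is a stably transfected clone of MDA-MB-231, a mesenchymal triple-negative breast cancer cell line, that carries a plasmid for tristetraprolin (TTP) under a tet-off system, in which doxycycline keeps the introduced gene silent. Its 4 libraries were set against the 8 libraries of EV_A and EV_B, 2 clones of the same line with the tet-off system and an empty vector (4 libraries each), so that 12 of the 16 libraries of the series entered the comparison, over all 14857 listed genes. The 4 libraries of TTP_E11, the other clone with TTP, served to ask which differences were particular to TTP_H3. All cells grew with G418 and hygromycin B. Doxycycline (2 µg/mL) was added to the cells with TTP, and the drugs were washed out for at least 24 h before the experiments. The labels give the 4 libraries of a clone as biological replicates, so p-values here speak of cultures of 1 clone, not of clones. With 1 clone of this kind, the effects of TTP, of the clone and of its doxycycline history cannot be told apart.

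TTP, encoded by ZFP36, is a zinc finger protein that binds AU-rich elements in the 3′ untranslated regions (3′ UTRs) of mRNAs and recruits the deadenylation and decapping machinery, which shortens the life of the bound mRNA. Its known targets include mRNAs of cytokines, growth regulators and proteases. TTP is often low in aggressive breast cancer cells, and the study re-expressed it.

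Libraries were assigned to clones by the library names that the descriptions hold, because the titles of all 4 libraries of TTP_H3 call it an EV clone while naming it H3 (3 of the 4 titles of TTP_E11 do likewise). The level of ZFP36 (chromosome 19, 39406813 to 39409412, GRCh38) was therefore examined first. Levels are normalized counts, which are read counts divided by 1 size factor per library. ZFP36 stood at 14986, 14097, 13337 and 15041 in the 4 libraries of TTP_H3, at 282, 226, 248 and 278 in EV_A and at 213, 234, 223 and 218 in EV_B. Every library of TTP_H3 was far above all 8 empty-vector libraries, which goes against the letters EV in those titles. The log2 change against the mean of the EV clones was 5.90 ± 0.047 (SE, limma adjusted p = 3.88e-33), and p was 0.00404 by the exact two-sided permutation test of 4 against 8 libraries, which can give no smaller value. The level was also above that of TTP_E11 (10482 ± 337, SD, n = 4) by 0.45 on the log2 scale. The related AU-rich element binding proteins ZFP36L1 and ZFP36L2 fell, by log2 changes of -0.59 and -1.21.

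The 12 libraries compared held 15643184 to 22066098 reads each on the listed genes. Replicate 3 of TTP_H3 was the least like its clone. Distances between libraries were taken over genes with a mean of at least 50 normalized counts. The root mean square distance of replicate 3 to the other 3 libraries was 0.248 on the log2 scale. For each of those libraries it was 0.180 to 0.195. Replicate 4 of EV_B stood apart to a lesser degree (0.210 against 0.170 to 0.176). Counts without replicate 3 are therefore given beside the main ones. RNA was measured in bulk, where fewer cells of a kind and less RNA per cell cannot be told apart. All 10 markers of mesenchymal basal lines were measured, such as VIM (22150.4 ± 1606 in TTP_H3). Against the mean of the EV clones 5 of them passed the threshold as lower and 1 as higher, beside 32% and 32.7% of all genes. Their median was -0.10. VIM (-0.55), CD44 (-0.56) and CAV1 (-0.88) were below both EV clones and 0 were above. By the same rule, given further on, 18.8% of all genes were lower and 18.9% higher. Of the markers of other cells, 5 of 10 immune, 2 of 8 endothelial, 4 of 7 fibroblast, 5 of 8 luminal and 1 of 7 embryonic kidney genes were listed. Both listed endothelial genes were outside the EV clones and higher, the VEGF receptor KDR at 97.9, 95.1, 125 and 100.2 (EV libraries 33.3 to 55.5) and the junction protein ESAM at 268, 258, 321 and 262 (EV libraries 125 to 176), as was the kidney-list gene GATA2 (0.95), and their part in the results was not tested. None of the listed immune and fibroblast genes was outside the EV clones, and of the luminal genes XBP1 was lower (-0.31). Of the receptors low in triple-negative cells ERBB2 was listed, at a change of 0.27.

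TTP_H3 differed from the EV clones over most of the transcriptome. By limma on log2(normalized count + 1), 9612 genes passed an adjusted p of 0.05 against the mean of both EV clones (64.7% of genes), 4853 of them higher and 4759 lower (32.7% and 32%). The EV clones also differed from each other, with 5468 genes called between EV_B and EV_A (36.8%), 3003 higher in EV_B (20.2%) and 2465 lower (16.6%). A stricter rule was therefore used. A gene was called outside both EV clones when TTP_H3 passed the threshold against EV_A and against EV_B in the same direction and its 4 values lay above, or below, all 8 EV values. Values beyond all 8 EV values, with no test, were found for 5755 genes (38.7%). The whole rule held for 5596 genes (37.7%), 2803 higher (18.9%) and 2793 lower (18.8%). At least a doubling against each EV clone was found for 523 of the higher genes, and at least a halving for 139 of the lower ones. Without replicate 3 of TTP_H3 the counts were 3094 higher and 3082 lower, which held 97.8% and 98.9% of the genes called with it. Leaving a library out cannot break the part of the rule on values, so only the tests could lower these shares. In the other direction, 88.6% and 89.6% of the genes called without it were also called with it. Replicate 3 itself lay outside the range of the 8 EV libraries for 88.9% and 89.8% of the genes so called from the other 3 libraries.

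Most of these differences were small. The median size of the change of genes outside both EV clones was 0.47 on the log2 scale, and the median over all genes was 0.00. Large rises were more numerous than large falls: for 153 of the higher and 12 of the lower genes the log2 change was 2 or more against each EV clone, which the plot of changes against each EV clone shows as the longer arm to the upper right. All changes are on the log2(normalized count + 1) scale, which understates the change of genes with few reads.

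TTP_H3 also differed from the other clone with TTP. Against TTP_E11 alone 1735 genes were called (11.7%), 944 higher (6.35%) and 791 lower (5.32%). A gene was called particular to TTP_H3 when it passed the threshold in the same direction against EV_A, EV_B and TTP_E11 and its 4 values lay beyond those of all 12 other libraries. This held for 514 genes (3.46%), 320 higher (2.15%) and 194 lower (1.31%), and for 34 and 10 of these the log2 change was 1 or more in every contrast. Without replicate 3 of TTP_H3 the counts were 451 and 340, of which 285 and 169 were also called with it. Replicate 3 itself lay outside the 12 other libraries for 67.2% and 54.1% of the genes called from the other 3 libraries. Without replicate 2 of TTP_E11 the counts were 234 and 126. The median size of the change of the 514 genes was 0.53 against EV_A, 0.44 against EV_B and 0.22 against TTP_E11.

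**Figure D1:**
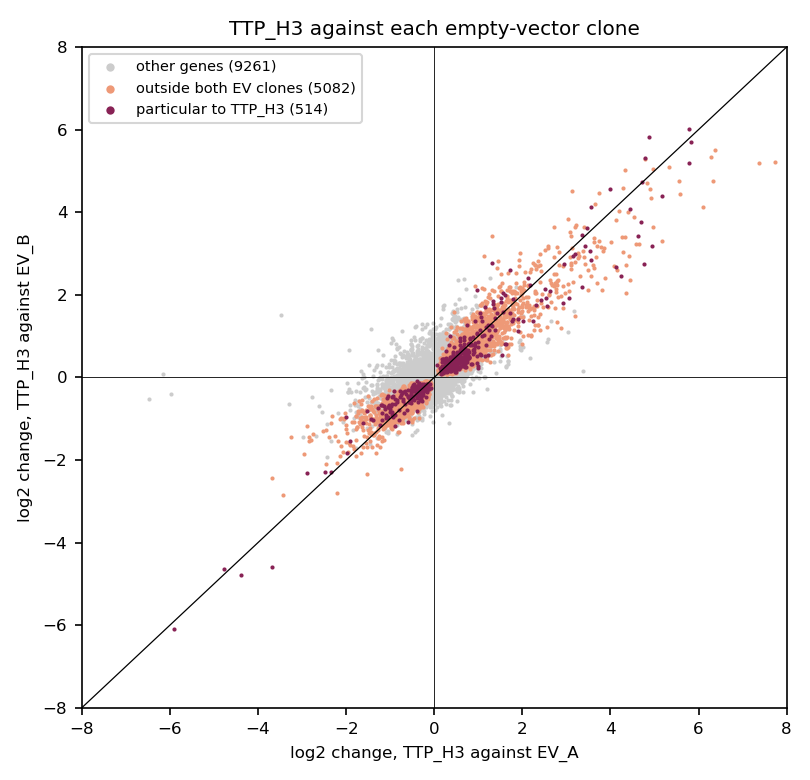
Each point is 1 of 14857 genes, with the log2 change of TTP_H3 against EV_A on the horizontal axis and against EV_B on the vertical axis, both from limma. The 5596 genes outside both EV clones, 514 of them particular to TTP_H3, lie in the 2 quadrants where both changes have the same sign, since the rule asks for this; the diagonal marks equal changes.

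Among the 12 higher genes with the largest changes against both EV clones, several were almost silent in the EV clones. MYCT1, named as a MYC target, stood at 85.8, 84.8, 133 and 105 in TTP_H3 and at 0 to 1.88 over the 8 EV libraries. NKX2-1, a homeobox factor that specifies thyroid and lung epithelium, stood at 31.3, 38.9, 65.8 and 29.8, against 1 read in all EV libraries together. CASP1, the inflammatory caspase that matures interleukin-1β, stood at 41.4, 45.8, 113 and 59.6, against 0 to 3.62. In each of the 3 genes replicate 3 was the highest library of TTP_H3, and the lowest one was still far above every EV library. SALL2, a zinc finger transcription factor, stood at 74.7, 66.4, 60.8 and 60.5, against 0 to 2.41 in the EV libraries and 14.7 to 28.6 in TTP_E11. CCND2, a D-type cyclin of the G1 phase, stood at 177, 198, 199 and 176, against 3.18 to 9.51. In SALL2, which was also particular to TTP_H3, and in CCND2, replicate 3 lay among the other libraries of its clone or close to them.

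Secreted and scaffold proteins made up others of this group. MMP1, the interstitial collagenase, stood at 6076, 5928, 11555 and 5976 in TTP_H3, at 37.4, 53.8, 35.5 and 42.6 in EV_A and at 161, 148, 185 and 311 in EV_B. KISS1, the kisspeptin precursor known as a metastasis suppressor, stood at 1686, 1619.8, 4275 and 1666, against 24.1, 25.1, 25.98 and 28.4 in EV_A and 49.5, 44.5, 58.03 and 51.7 in EV_B. Replicate 3 was by far the highest library of TTP_H3 in both genes, and the mean without it was 5993 and 1657. The groups do not overlap with or without that library, and EV_B lay above EV_A for both genes. FRMPD4, a scaffold protein, showed the same order of the EV clones, with 437, 432, 484 and 421 in TTP_H3, 0, 0.928, 2.598 and 1.78 in EV_A and 11.2 ± 3.12 (mean ± SD, n = 4) in EV_B. ZFP36, described above, belongs to the 12 as well. The remaining 3, EDA, CPVL and TESPA1, were also above TTP_E11 and are described with the genes particular to TTP_H3.

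**Figure D2:**
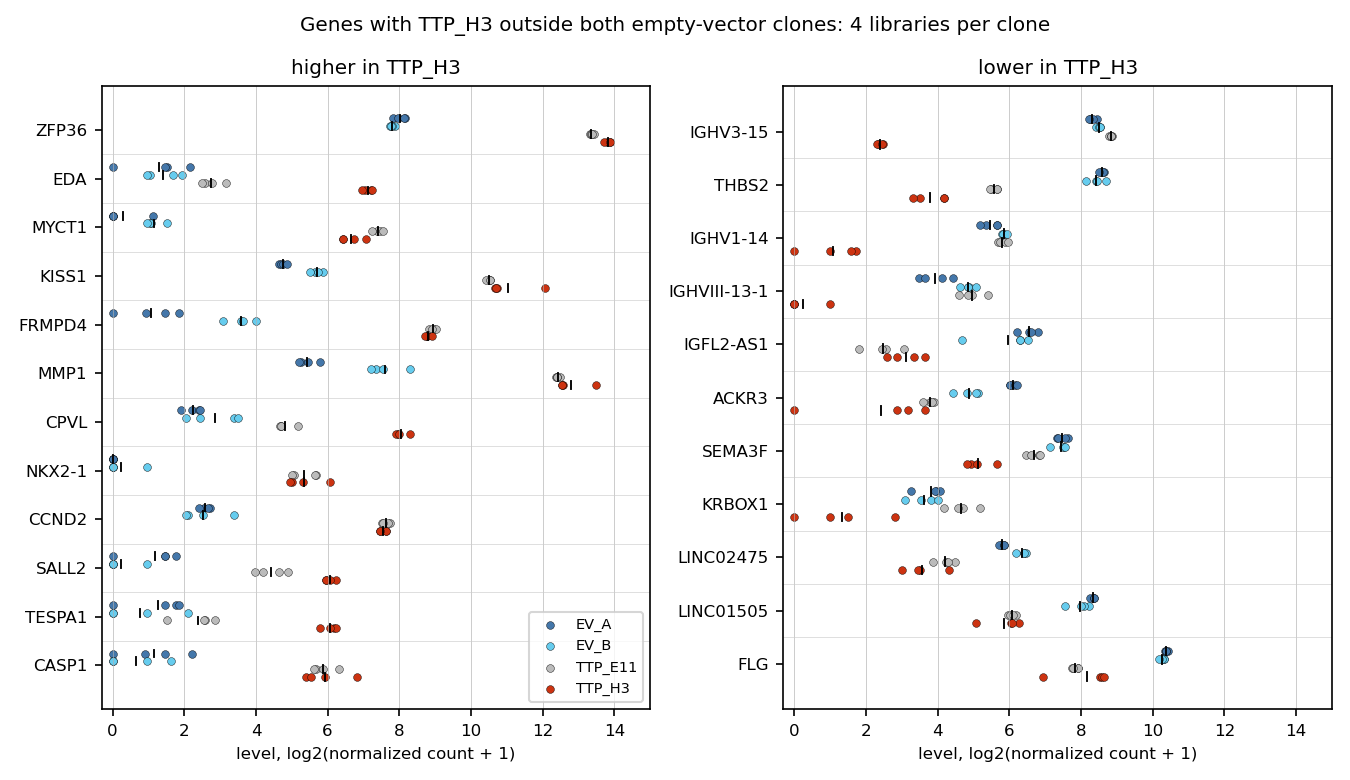
Levels in all 16 libraries of the higher and lower genes with the largest changes outside both EV clones, as log2(normalized count + 1); points are libraries, coloured by clone, and short black bars are the means of 4 libraries. The TTP_H3 points lie beyond all EV points in every row, and replicate 3 is the detached point of KISS1 (4275), MMP1 (11555) and FLG (122).

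Among the lower genes, THBS2, a matricellular thrombospondin, stood at 17.2, 10.3, 16.96 and 9.03 in TTP_H3 and at 283 to 413 in the EV libraries (log2 change -4.71 ± 0.133, SE, limma adjusted p = 3.1e-23). ACKR3, an atypical receptor that scavenges the chemokine CXCL12, stood at 8.07, 11.5, 0 and 6.32, against 63.9, 64.1, 70.1 and 73.7 in EV_A and 27.5, 33.9, 32.3 and 20.7 in EV_B. FLG, filaggrin of the cornified epidermis, stood at 367, 386, 122 and 398, against 1153 to 1379. The lowest value of ACKR3 and of FLG was that of replicate 3, and the other 3 libraries were below all EV libraries too. Of the noncoding genes, LINC01505 stood at 64.6, 75.6, 32.9 and 65.9 (EV libraries 187 to 329.9), LINC02475 at 7.07, 10.3, 18.95 and 9.93 (EV libraries 51.1 to 86.6) and IGFL2-AS1 at 9.08, 11.5, 4.99 and 6.32 (EV libraries 24.4 to 109.5, the lowest being replicate 4 of EV_B). Whether strand was used in counting is not stated, so reads of genes that overlap on opposite strands cannot be told apart. Of the genes named with values, the annotation gives such an overlap for FLG, SEMA3F, CCNA2, CCND1, CDK2, CDK6, SREBF1, DHCR7, CA9, VIM, KRT81, CAV2, TAGLN, ITGA7, ITGB1, PTX3, CMPK2, PDIA3, ERBB2, ESAM, GATA2, RPL22 and RPS4X, and for CPVL, CHN2 and VPS9D1-AS1, described further on. SEMA3F, KRBOX1 and 3 immunoglobulin variable genes, also in this group, are described below.

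Genes of cell division were lower in TTP_H3. Of 49 genes of G2 and mitosis, 38 were outside both EV clones and lower and 0 higher (all genes: 18.8% and 18.9%), with a median log2 change of -0.37 against 0.00 over all genes. HMMR, a spindle-associated hyaluronan receptor, stood at 209 ± 7.07 in TTP_H3, down from 381 ± 32.5 in EV_A and 439.9 ± 21.2 in EV_B (SD, n = 4 each). The mitotic kinesin KIF14 fell from 2061 ± 59.8 and 2168 ± 65.03 to 1128 ± 167, and the mitotic cyclin CCNA2 and the microtubule protein CKAP2 changed by -0.72 and -0.66 on the log2 scale. The spindle checkpoint gene BUB3 (-0.03) and NUSAP1 (-0.01) did not pass. Set against EV_A, EV_B had 22 of the 49 called higher and 2 lower, beside 20.2% and 16.6% of all genes, with a median of 0.08. Of 18 replication-dependent histone genes, which are alike in sequence, 7 were outside and lower and 0 higher, among them HIST1H2AC (-0.81) and HIST1H2BJ (-0.77).

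Genes of the G1/S transition and DNA replication moved both ways. Of 50, 12 were outside and higher and 15 lower (24% and 30%, beside 18.9% and 18.8% of all genes), with a median of 0.00. The D-type cyclins differed in direction: CCND1 fell to 8381 ± 428, from 15514 ± 275 in EV_A and 17447 ± 672 in EV_B, whereas CCND2 rose, as given above. The CDK inhibitors CDKN2D and CDKN2C, which restrain CDK4 and CDK6, had log2 changes of -2.03 and -1.01, both past the threshold. CDKN2C stood at 1198, 1196, 1181 and 1184 in TTP_H3 and at 1317 to 1355 in TTP_E11, and it is among the genes particular to TTP_H3. CDK6 (-0.09) and CDK2 (0.06) did not pass.

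Genes of metabolism under control of oxygen and sterols were lower. Of 44 genes of hypoxia and glycolysis, 21 were outside and lower and 1 was higher (median -0.43), beside 18.8% and 18.9% of all genes. BHLHE40, a hypoxia-induced repressor, fell to 473 ± 120.4, from 2199.7 ± 96.8 in EV_A and 1255 ± 263 in EV_B, and the enolase ENO2 from 1734 ± 97.8 and 1279 ± 149.7 to 628 ± 63.04. The carbonic anhydrase CA9 stood at 239.7 ± 17.4 in EV_A, 38.8 ± 12.3 in EV_B and 24.7 ± 9.08 in TTP_H3, so that TTP_H3 overlapped EV_B. The EV clones differed in this list as well: 29 genes were lower in EV_B and 4 were higher, beside 16.6% and 20.2% of all genes. Of 27 genes that make cholesterol or regulate its making, 11 were outside and lower and 0 higher (median -0.32). The sterol-response regulator SREBF1 fell from 4521 ± 119.6 and 2108 ± 479.8 to 1042 ± 47.4. DHCR7 (-0.12) and SCAP (0.07) did not pass.

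Of 35 genes of endoplasmic reticulum folding and degradation, 16 were outside and lower and 2 higher (median -0.20). EDEM1, SELENOS and the chaperone DNAJC3 had log2 changes of -0.66, -0.62 and -0.53. Cytosolic ribosomal protein genes went the other way, with 38 of 78 outside and higher and 1 lower, at a small median of 0.21. RPL22 rose from 5164 ± 204 and 5077 ± 238 to 6604 ± 163. EV_B was also called above EV_A in 71 of these genes, beside 20.2% of all genes. The median change of TTP_H3 was 0.32 against EV_A and 0.11 against EV_B. Near-identical pseudogenes can share reads with these genes. Of 13 mitochondrially encoded genes 2 were outside and higher, MT-ND2 and MT-ND3 (15.4%, beside 18.9% of all genes). Of 29 genes of the integrated stress response, 4 were outside and higher and 5 lower (13.8% and 17.2%, beside 18.9% and 18.8% of all genes). The log2 change was 0.91 for SESN2 and -1.13 for DDIT4, an mTORC1 inhibitor. Of 27 p53 target genes 5 were outside and higher and 8 lower (6 and 12 without replicate 3). Their shares with all libraries were 18.5% and 29.6%. The BH3-only genes BBC3 and PMAIP1 moved in opposite directions (0.70 and -1.19).

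Genes of pyroptosis, the inflammatory cell death in which caspases open gasdermin pores, were higher. Of 12 measured, 9 were outside both EV clones and higher and 0 lower, beside 18.9% and 18.8% of all genes. Their median was 0.71. CASP4, the caspase that senses lipopolysaccharide in the cytosol, rose to 1002 ± 15.3, from 326 ± 22.5 in EV_A and 352 ± 13.2 in EV_B. The inflammasome sensor NLRP3 rose from 31.6 ± 5.97 and 52.8 ± 7.88 to 92.8 ± 16.3. CARD16, which lies beside CASP1 and resembles it so closely that reads of the pair are uncertain, stood at 51.5, 58.4, 66.8 and 42.4 in TTP_H3 and at 0 to 2.12 in the EV libraries. The gasdermins GSDME and GSDMB did not pass, with changes of 0.04 and -0.03. None of these genes was particular to TTP_H3, where 3.46% of all genes were.

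Of 24 NF-kB subunits and targets, 10 were outside and higher and 4 lower (41.7% and 16.7%, beside 18.9% and 18.8% of all genes). Their median was 0.20. TRAF1, an adaptor of TNF receptors, stood at 611, 652, 656 and 663 in TTP_H3, 154 to 239 in the EV libraries and 470.0 to 494 in TTP_E11. ICAM1, an adhesion molecule for leukocytes, stood at 789, 820.2, 694 and 747, 254 to 434 and 543 to 568 in the same order. Both genes were thus highest in TTP_H3, with no overlap with any other clone. The acute-phase gene SAA1 fell (-1.38), and PTX3 (-0.20) did not pass. Of 21 cytokines and chemokines 3 were outside and higher, 6 without replicate 3, and 4 lower. The shares with all libraries were 14.3% higher and 19.0% lower. IL32 stood at 315, 326, 341 and 301 in TTP_H3, against 47.6 to 81.4 in the EV libraries and 186 to 224 in TTP_E11. IL11 did not separate from both EV clones, with 29.4 ± 5.26 in EV_A, 281 ± 32.1 in EV_B and 327 ± 104 in TTP_H3, which overlapped EV_B.

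Of 26 TNF superfamily ligands and receptors 7 were outside and higher and 5 lower (26.9% and 19.2%, beside 18.9% and 18.8% of all genes). The ligand gene TNFSF15 rose from 28.2 ± 8.42 and 20.6 ± 5.01 to 103 ± 14.2, and the ligand gene TNFSF9 fell from 199 ± 16.96 and 83.9 ± 24.1 to 28.6 ± 8.29. Interferon-stimulated genes showed no common direction, with 7 higher and 7 lower of 52 (13.5% each). Of these 52, 42 were lower in EV_B than in EV_A, beside 16.6% of all genes. Their median in TTP_H3 was -0.37 against EV_A and 0.35 against EV_B. IFITM1 rose (1.63) and CMPK2 fell (-1.67) against both. Of 21 genes of MHC class I presentation 3 were outside and higher and 3 lower, B2M, TAPBP and PDIA3, by -0.50, -0.59 and -0.31.

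Cell adhesion and matrix genes lay on both sides of the EV clones, in shares to be read beside the 18.9% higher and 18.8% lower of all genes. Of 32 cadherins and protocadherins 9 were outside and higher and 5 lower (28.1% and 15.6%). CDH2, N-cadherin of mesenchymal cells, stood at 291, 329.9, 223 and 339 in TTP_H3, at 19.5 to 43.3 in the EV libraries and at 138 to 149 in TTP_E11. The desmocollin gene DSC2 stood at 23.2, 13.7, 39.9 and 21.7 in TTP_H3 and at 0 to 4.24 in the EV libraries, with PCDH7 and PCDH9 at log2 changes of 2.46 and 1.94. Of 27 mesenchymal genes 6 were outside and higher, among them TAGLN (2.38), and 8 lower, among them S100A4 (-1.23) and CAV2 (-1.21); TGFBI (-0.39) did not pass. The shares of this list were 22.2% and 29.6%. Of 54 collagens, laminins and matrix glycoproteins 10 were higher, 18 without replicate 3, and 8 lower (18.5% and 14.8%). Their median was -0.14, and 0.05 without that library, with COL11A1 (3.40) and LAMA1 (2.23) as the largest rises. Of 15 integrins 1 was outside and higher, ITGA7 (2.17), and 3 lower, including ITGB1 (-0.72) and ITGA3 (-0.62). Of 29 matrix proteases and inhibitors 4 were higher and 6 lower (13.8% and 20.7%), with TIMP4 at -1.47. Of 9 keratins 0 were outside and higher and 1 lower, KRT80 (-1.22). Of 3 mucins MUC4, described further on, was outside and higher.

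Counts of signalling families are to be read beside the 18.9% higher and 18.8% lower of all genes. Among these families, the TGF-beta and BMP list stood lower, with 13 of 35 genes outside and lower and 5 higher (median -0.16). The ligand BMP4 fell from 6116 ± 50.6 and 4252 ± 511 to 2225 ± 228, whereas the activin subunit INHBA rose from 33.5 ± 2.67 and 48.99 ± 7.58 to 154 ± 7.79. Of 19 EGF and FGF ligands and receptors 5 were higher and 8 lower. FGF5 stood at 230.1, 212, 291 and 197 in TTP_H3, 31.2 to 60.9 in the EV libraries and 135 to 164 in TTP_E11, and the receptor genes ERBB3 and FGFR4 rose by 2.08 and 1.94. Of 31 WNT genes 3 were higher and 8 lower, with TCF7L1 at 2.53 and WNT9A at -1.56. Of 23 Notch genes 7 were higher, such as the target HEYL (2.99), and 3 lower. Of 45 semaphorins, ephrins and other guidance genes 14 were higher and 10 lower, with EFNB3 (2.59) and SEMA3E (2.24) as examples of the former.

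Homeobox transcription factors, which set cell identity and body axis, were more often higher. Of 40 measured, 15 were outside and higher and 4 lower (median 0.20), beside 18.9% and 18.8% of all genes. MSX2 rose to 38.1 ± 1.91, from 8.41 ± 3.91 in EV_A and 11.4 ± 4.84 in EV_B, and POU2F2 from 59.3 ± 8.36 and 82.9 ± 7.82 to 232 ± 21.7. SIX2 stood at 258, 253, 279 and 255 in TTP_H3 and at 164 to 221 in TTP_E11, above which all 4 libraries lay. Of 25 voltage-gated and related channels 6 were higher and 2 lower.

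**Figure D3:**
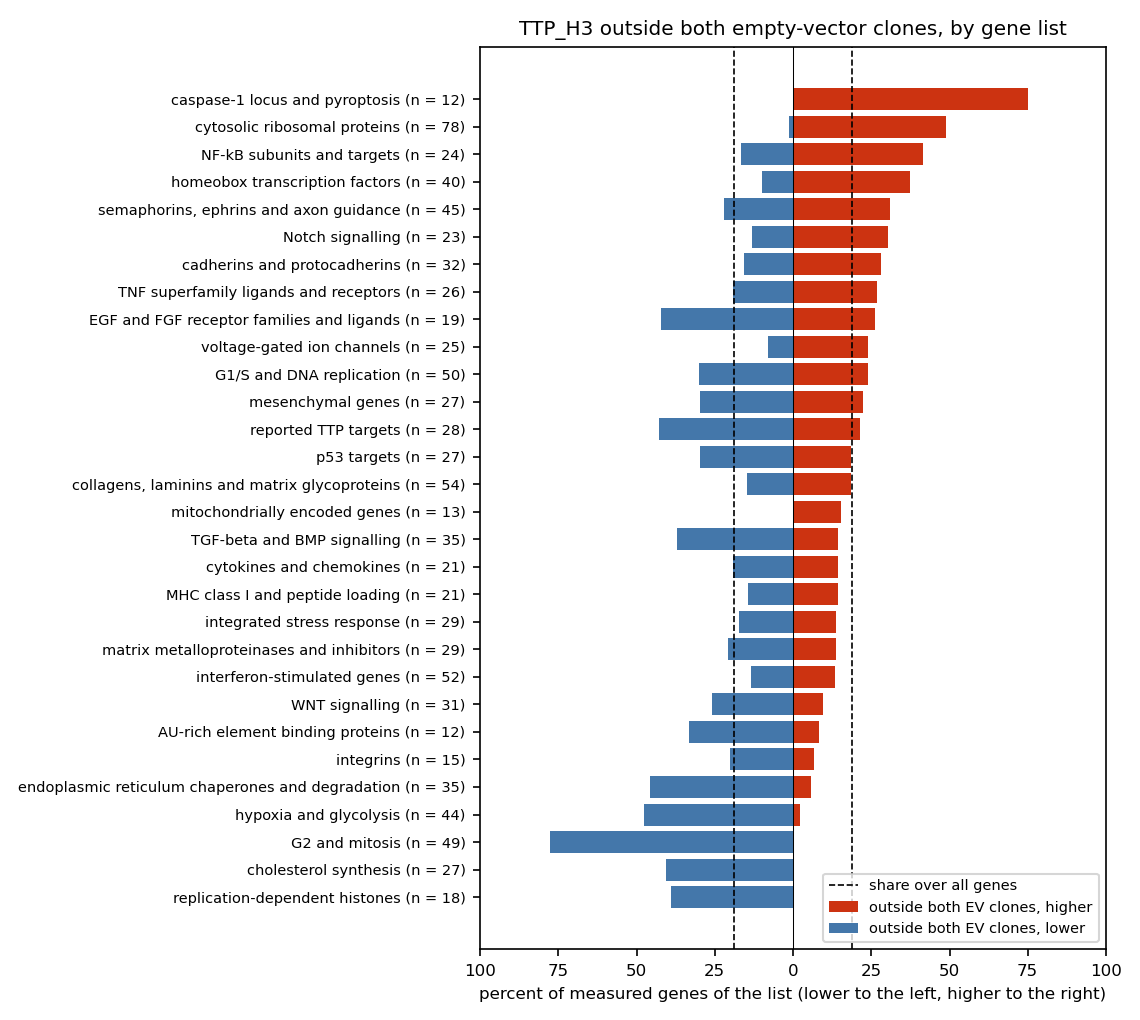
For each list with at least 10 measured genes, bars to the right give the percent of its measured genes outside both EV clones and higher in TTP_H3 and bars to the left the percent lower; dashed lines mark the shares over all genes, 18.9% and 18.8%. The longest bars are those of pyroptosis to the right (9 of 12) and of G2 and mitosis to the left (38 of 49).

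Of 28 reported targets of TTP, 12 were outside both EV clones and lower and 6 higher (42.9% and 21.4%, beside 18.8% and 18.9% of all genes). The median was -0.06. The higher ones included ZFP36 itself, whose own mRNA carries AU-rich elements and is introduced here. Without replicate 3 the counts were 12 lower and 9 higher and the median -0.17. The kinase PIM1, the cytokine LIF, the cyclin CCND1 and the oxygen-regulated transcription factor HIF1A fell, with log2 changes of -1.18, -1.17, -0.97 and -0.94. MMP1 (6.28), the chemokine receptor CXCR4 (2.03), the phosphatase DUSP1 (1.18) and the NF-kB inhibitor TNFAIP3 (1.10) rose. CXCR4 stood at 24.2, 30.9, 20.9 and 17.2 in TTP_H3, 2.41 to 11.6 in the EV libraries and 8.78 to 11.1 in TTP_E11. CXCL8 (-0.09) and FOS (0.12) did not pass. Of 12 genes for AU-rich element binding proteins 4 were outside and lower, including RC3H2 (-0.44), and 1 higher, ZFP36.

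The core of the element bound by TTP is an AU-rich heptamer, written TATTTAT in DNA letters. The windows printed here show its first occurrence in the annotated 3′ UTR of the 4 lower and 4 higher target genes just named. These genes were chosen after their values were seen, among targets that hold the heptamer, since only such genes can give a window. That lower and higher genes both carry it here follows from this choice and is not a result. The windows are read 5′ to 3′ on the gene's strand from the GRCh38 genome with GENCODE 29. Capitals mark every base of the heptamer, overlapping copies included.
PIM1: caatgttatgTATTTATTTATTTATtt
LIF: gcatgatttcTATTTATtatgatatcc
CCND1: ctaaaaagtaTATTTATtgcagaggat
HIF1A: taaagcagtcTATTTATattttctaca
MMP1: aatataatctTATTTATacctcagttt
CXCR4: ttaattgactTATTTATataaattttt
DUSP1: ggctggtcctTATTTATttaacttcac
TNFAIP3: taattcacttTATTTATtttattacaa

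These windows lie at chr6:37174982-37175008 (PIM1, plus strand), chr22:30242573-30242599 (LIF, minus strand), chr11:69652695-69652721 (CCND1, plus strand), chr14:61747135-61747161 (HIF1A, plus strand), chr11:102790274-102790300 (MMP1, minus strand), chr2:136114698-136114724 (CXCR4, minus strand), chr5:172768644-172768670 (DUSP1, minus strand) and chr6:137882299-137882325 (TNFAIP3, plus strand). The 3′ UTRs held, in copies of the heptamer, 4 in 1335 bases (PIM1), 5 in 3204 bases (LIF), 1 in 3192 bases (CCND1) and 3 in 1174 bases (HIF1A) among the lower genes. Among the higher genes they held 1 in 492 bases (MMP1), 1 in 520 bases (CXCR4), 3 in 672 bases (DUSP1) and 2 in 1992 bases (TNFAIP3). On the gene's strand, TATTTAT was sought in the annotated 3′ UTR of 1 transcript per gene. That transcript was chosen by annotation tags first and then by the length of its coding sequence. The heptamer was present in 49.9% of the genes outside both EV clones and lower (1308 of 2621 with a 3′ UTR) and 19.6% of those higher. It was present in 30.0% of those not outside and 32.0% of all 12446 genes with a 3′ UTR. The lower genes also had longer 3′ UTRs, with a median of 1534 bases against 867 for the higher genes. Within 3′ UTRs above 500 and up to 1500 bases the shares were 38.4% of the lower, 13.7% of the higher and 23.6% of the genes not outside, and above 3000 bases 79.6%, 58.3% and 66.8%. The 9-base form TTATTTATT, which contains the heptamer, was found in 13.0% of the lower and 5.14% of the higher genes.

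The difference was not limited to this order of letters. For the 20 other orders of 5 T and 2 A, searched the same way, the share among the lower genes was 1.81 to 2.61 times that among the higher genes, and for TATTTAT it was 2.55 times. By this ratio the heptamer ranked 2 of 21, and by the difference of the shares 1. All 21 orders were thus more frequent among the lower genes, whose 3′ UTRs were also longer, and the part of length and base composition in the difference was not tested. The matches are letters in an annotation, not measured binding.

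Among the genes particular to TTP_H3, the higher ones were led by genes almost without reads elsewhere. EDA, the ectodysplasin ligand of the TNF superfamily that acts in hair, tooth and gland development, stood at 147, 132, 149.6 and 124 in TTP_H3, at 0 to 3.46 in the EV libraries and at 4.61 to 8.04 in TTP_E11. GRAMD1B, a cholesterol carrier at contacts of the endoplasmic reticulum with the plasma membrane, stood at 65.6, 73.3, 113 and 65.9, 1.06 to 7.52 and 1.84 to 4.904 in the same order. TESPA1, known from T cell receptor signalling, stood at 71.7, 53.8, 74.8 and 65.9, 0 to 3.301 and 1.84 to 6.26. In all 3 genes every library of TTP_H3 was far above every one of the 12 others. PDE9A, a phosphodiesterase of cyclic GMP, stood at 64.6, 77.9, 60.8 and 68.6 in TTP_H3 and reached 3.69 to 9.81 in TTP_E11. DACT2, a regulator of WNT signalling, stood at 38.4, 28.6, 31.9 and 36.1, with an EV range of 0 to 7.61, and the calcium-activated chloride channel gene ANO2 at 101, 76.8, 61.8 and 79.4, with an EV range of 0.866 to 11.6. C1orf115 stood at 39.4, 26.3, 54.9 and 38.8, with an EV range of 1.100 to 4.76.

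CPVL, a serine carboxypeptidase, and CHN2, a Rac GTPase-activating protein, overlap on opposite strands of chromosome 7. CPVL stood at 246, 239, 314 and 252 in TTP_H3 and at 24.5 to 34.9 in TTP_E11, and CHN2 at 54.5, 61.9, 59.9 and 75.8 and 3.92 to 8.295. Since strand is not stated for the counting, reads of the pair cannot be told apart. LRG1, a secreted glycoprotein, stood at 45.4, 61.9, 50.9 and 60.5, and the inflammasome-related NLRP2 at 213, 171, 229 and 218, against 37.4 to 48.7 in the EV libraries and 50.04 to 68.96 in TTP_E11. The orphan nuclear receptor ESRRG stood at 78.7, 56.1, 215 and 74.02, where replicate 3 lay far above the other 3 libraries, and at 22.6 to 27.7 in TTP_E11. Of these 12 genes EDA, CPVL and TESPA1 were also among the 12 largest rises against the EV clones.

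**Figure D4:**
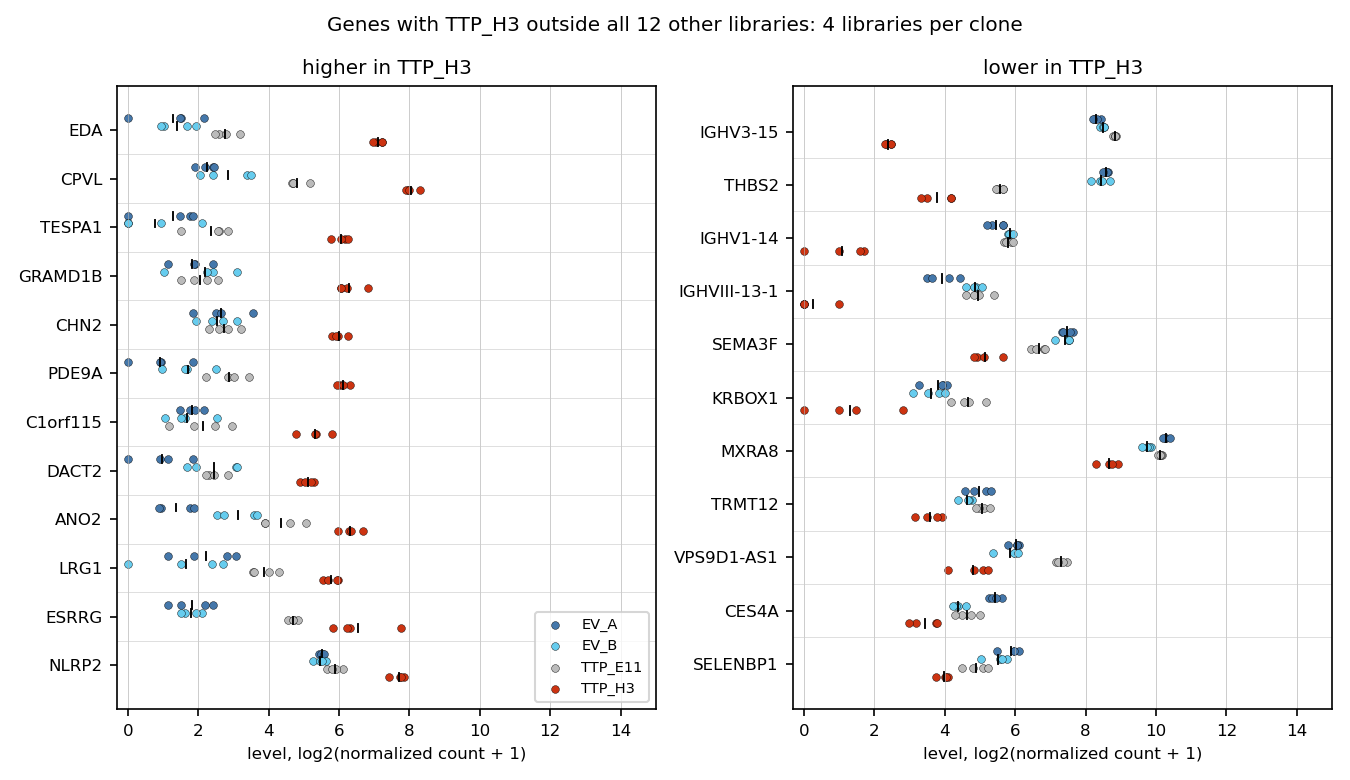
Levels in all 16 libraries of the genes particular to TTP_H3 with the largest changes, as log2(normalized count + 1); points are libraries, coloured by clone, and short black bars are the means of 4 libraries. The gap between TTP_H3 and the 12 other libraries is widest for EDA on the left and for IGHV3-15 on the right.

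Among the lower genes particular to TTP_H3, SEMA3F, a secreted semaphorin that repels axons and endothelial cells, stood at 29.3, 27.5, 49.9 and 33.4 in TTP_H3, at 139 to 199 in the EV libraries and at 87.3 to 114 in TTP_E11. THBS2 stood at 17.2, 10.3, 16.96 and 9.03 against 43.3 to 49.1 in TTP_E11, which itself was below both EV clones. MXRA8, a membrane protein known as an entry receptor of arthritogenic alphaviruses, stood at 403, 487, 312 and 431, 783 to 1351 and 1069.7 to 1161. For MXRA8 the TTP_E11 libraries lay within the EV range, so that TTP_H3 alone was lower. KRBOX1 stood at 1.01, 0, 5.99 and 1.81, with 16.98 to 35.02 in TTP_E11, and the selenium-binding protein gene SELENBP1 at 15.1, 12.6, 15.96 and 15.3, with 21.3 to 36.6. The tRNA-modifying enzyme gene TRMT12 and the carboxylesterase gene CES4A were low throughout, at 7.98 to 14.1 and 6.98 to 12.6 in TTP_H3 and 19.8 to 38.99 and 17.9 to 48.3 in the EV libraries. The antisense gene VPS9D1-AS1 stood at 16.2 to 36.9, below the EV libraries (40.2 to 68.7), while TTP_E11 lay above them (141 to 176).

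In MUC4, a membrane mucin, the clones with TTP also lay on opposite sides of the EV clones. It stood at 64.6, 59.6, 32.9 and 49.6 in TTP_H3, 7.52 to 19.9 in the EV libraries and 1.79 to 6.27 in TTP_E11, with log2 changes of 1.80 for TTP_H3 and -1.61 for TTP_E11 against the EV clones and 3.42 ± 0.320 (SE, limma adjusted p = 2.36e-09) between the 2 TTP clones. No list held more than 3 genes particular to TTP_H3 in 1 direction, and the 3 higher ones of the NF-kB list were TRAF1, ICAM1 and NFKBIE. The 3 lower protocadherins, PCDHB10, PCDHB13 and PCDHGB1, belong to a cluster of similar genes on chromosome 5.

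The genes particular to TTP_H3 were not spread evenly over the genome. On chromosome X, 35 of 474 listed genes were particular and higher (7.38%) and 4 lower. In fixed windows of 10 Mb with at least 10 listed genes, the window from 70 to 80 Mb on X held 42 genes, of which 23 were particular and higher. Its median log2 change was 0.51 against EV_A, 0.53 against EV_B and 0.37 against TTP_E11. The 288 windows that do not overlap the stretch described next reached at most 0.24, 0.32 and 0.11.

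A stretch from LAS1L to APOOL (chromosome X, 65512582 to 85093316, GRCh38), bounded after the values were seen, held 29 of the 35. It covers 56 listed genes, and 38 of them were outside both EV clones and higher and 3 lower. The share of genes particular and higher was 51.8% there, 1.44% over the 418 other listed genes of X and 1.99% over the other chromosomes. The median change over the 56 genes was 0.50 against EV_A, 0.51 against EV_B and 0.37 against TTP_E11, which are ratios of 1.42, 1.43 and 1.29. In the 4 libraries of TTP_H3 taken singly, the median against the EV clones was 0.50, 0.44, 0.51 and 0.56, so all 4 libraries, replicate 3 included, showed it. The median of TTP_E11 against the EV clones was 0.12, and that of EV_B against EV_A was -0.05. Because the stretch was bounded by genes chosen for their values, these shares and medians are a description, with no test.

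The stretch holds genes of many functions. LAS1L, a factor of ribosome biogenesis, stood at 2602, 2572, 2757 and 2549 in TTP_H3, 1355 to 1757 in the EV libraries and 1804 to 1894 in TTP_E11. NONO, an RNA-binding protein of paraspeckles, stood at 16904 ± 134 in TTP_H3, 11898 ± 125 in EV_A, 13266 ± 458 in EV_B and 13178 ± 206 in TTP_E11. PBDC1 stood at 1721, 1659, 1941 and 1734, 784 to 922 and 1028 to 1071. These 3 genes were well expressed in all clones, and TTP_H3 lay above the other clones in each of them. The copper-transport gene ATP7A (0.32 against the EV clones, 0.50 against TTP_E11) was not outside both EV clones, since its values overlapped those of EV_A. Its annotation overlaps that of PGK1 on the same strand, so the assignment of their reads is uncertain. The nucleosome-binding HMGN5 (2.16 and 0.77), the Mediator subunit MED12 (0.79 and 0.26) and the chromatin remodeller ATRX (0.33 and 0.41) also lie here. So does EDA, and so does RPS4X (22662, 21441, 21894 and 22126, with 17959.6 to 19147 in TTP_E11), the only cytosolic ribosomal protein gene of 78 that was particular to TTP_H3. The glycolytic enzyme gene PGK1 lies here too, with a change of -0.14 against the EV clones and 0.51 against TTP_E11.

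**Figure D5:**
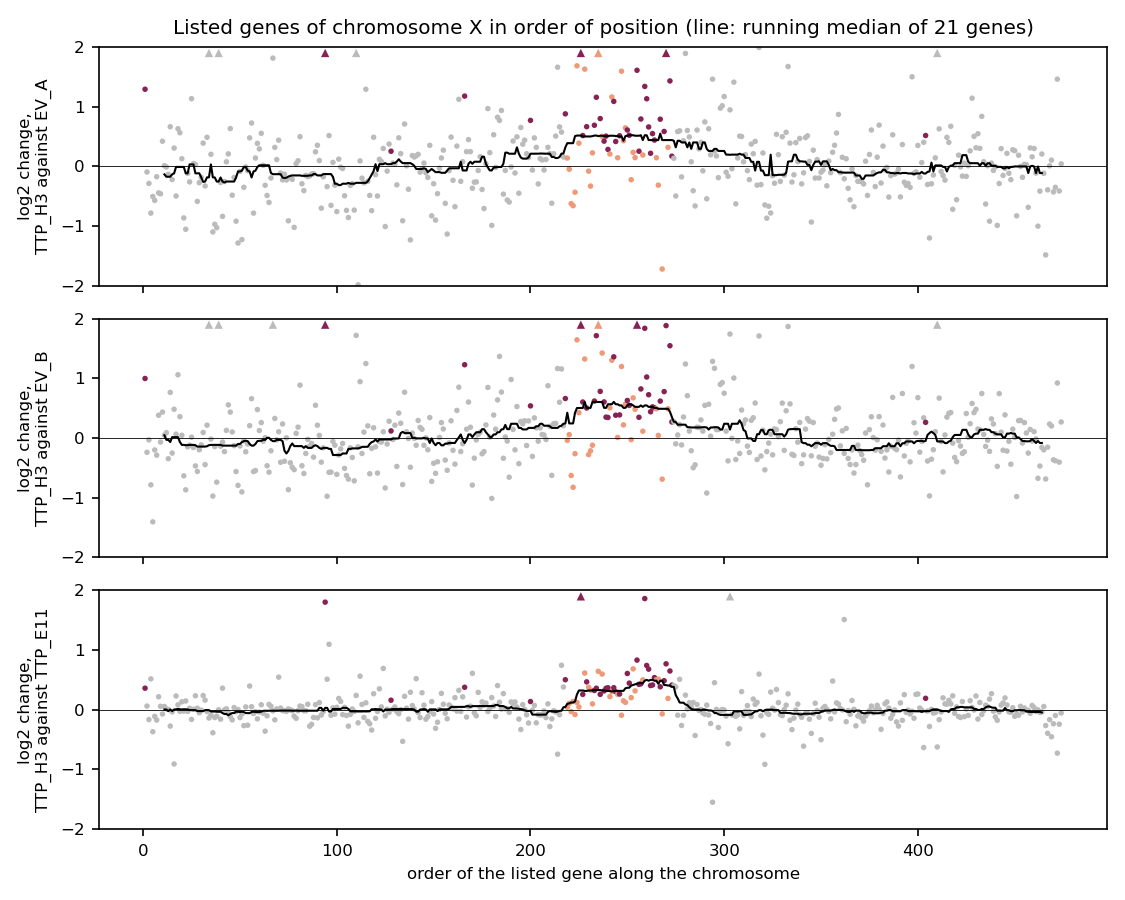
Listed genes of chromosome X in order of position, with the log2 change of TTP_H3 against EV_A, EV_B and TTP_E11 in the 3 panels. Purple points are genes particular to TTP_H3 and higher, and orange points are other genes of the stretch from LAS1L to APOOL. All other genes of X are grey, the 4 that were particular and lower included. Triangles at the edge are genes beyond 2 on the log2 scale, and the line is a running median of 21 genes. The line lies near 0 outside the stretch in the lowest panel and rises within it in all 3 panels, where the medians were 0.50, 0.51 and 0.37.

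On chromosome 14, 3 neighbouring listed genes of the immunoglobulin heavy chain variable region were almost without reads in TTP_H3. IGHV3-15 (chromosome 14, 106153624 to 106154163) stood at 4.04, 4.58, 3.99 and 4.51 in TTP_H3, at 296 to 369 in the EV libraries and at 443 to 463 in TTP_E11. The pseudogene IGHV1-14 stood at 1.01, 2.29, 1.995 and 0 in TTP_H3, against 35.5 to 60.2 and 50.2 to 60.8, and IGHVIII-13-1 had 1 read in the 4 libraries of TTP_H3, against 10.2 to 32.3 normalized counts in the EV libraries. No library of TTP_H3 overlapped any other in these 3 genes. The constant gene IGHG2 stood at 512 ± 32.4 in EV_A and 437 ± 42.3 in TTP_E11, but at 5.801 ± 0.378 in EV_B and 6.38 ± 1.96 in TTP_H3, so its low level was shared with 1 EV clone. IGHG1 stood at 708 ± 48.4, 666 ± 52.3, 636 ± 69.5 and 604 ± 19.6 in EV_A, EV_B, TTP_E11 and TTP_H3. Since immunoglobulin genes are alike in sequence, the assignment of reads to single genes is uncertain. Of the 6 listed genes of the immunoglobulin list, IGHV3-15 alone was outside both EV clones.

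Replicate 3 of TTP_H3 departed from its clone in both directions. The genes with the lowest values relative to the other 3 libraries were the noncoding AC245041.1 and AC245041.2, the annexin ANXA8, the hair keratin KRT81 and the collagen COL6A3. ANXA8 stood at 123, 109, 16.96 and 144 in TTP_H3, KRT81 at 370.4, 434, 63.8 and 368 and COL6A3 at 482, 448, 90.8 and 431. ANXA8 and the 2 AC245041 genes lie close together on chromosome 10. The highest were the phosphodiesterase PDE1C, LINC00704, the sialic acid receptor CD22, MYH16 and KISS1. PDE1C stood at 40.4, 33.2, 177 and 45.1, with 145 to 169.7 in TTP_E11 and 0 to 3.18 in the EV libraries, and CD22 at 174, 168, 533 and 213, with 165 to 210.4 in the EV libraries. For KRT81, replicate 3 lay below every EV library while the other 3 libraries lay above all of them, and no call was made (0.64 ± 0.406, SE, limma adjusted p = 0.189).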

How the data were processed

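RNA of the 16 libraries was measured by sequencing. Per the submitters' processing notes, STAR 2.5.2b, Trimmomatic 0.36, Subread 1.5.2 with featureCounts, and DESeq2 were used, with GRCh38; annotation, filters and strand setting are not given in the sources used here. What the authors deposited is 1 table. Its values are, from the deposited numbers, a signal: normalized counts that are whole reads divided by 1 size factor per library (100% of values whole within 0.001, a weaker check for TTP_H3 replicates 1 and 3). The smallest mean over all libraries was 9.68, so genes with few reads are missing from the table, and the background excludes them.

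Libraries were grouped by library name. limma 3.58.1 (R 4.3.3, robust, with a trend) was fitted to log2(value + 1) of all 16 libraries with 4 clone groups, with Benjamini-Hochberg adjustment over 14857 genes and a threshold of 0.05; the residual degrees of freedom were 12. Tried as alternatives were DESeq2 1.42.0 and edgeR 4.0.16 on recovered reads, other scalings, pseudocounts and filters, either EV clone alone, a replicate block and libraries left out. The limma step was checked on simulated data. GENCODE 29 matched 14820 genes, 12446 of them with a 3′ UTR.

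Genes named by rule were the ZFP36 family, the 12 highest and 12 lowest genes outside both EV clones and the 12 and 12 particular to TTP_H3 by their smallest change over the contrasts (highest clone mean at least 20), up to 4 called and 2 uncalled genes of each list, and 5 genes highest and 5 lowest in TTP_H3 replicate 3 (mean at least 50). Some genes that these rules name are not reported here. Other genes particular to TTP_H3, and those of the X stretch, were chosen after their values were seen. The members, rules and 40 gene lists were chosen with earlier results of these data known.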

Additional observations from a re-analysis of the deposited data

Results flagged for a closer look

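A library far from the other 3 of its clone was found in 13 of 132 groups of 4 examined over 44 genes, where chance gives about 5%. Of these, 8 were replicate 3 of TTP_H3. It was the highest library of its clone for KISS1 (4275 normalized counts), MMP1 (11555), CPVL (314), GRAMD1B (113), ESRRG (215), LTB (70.8) and IGHVIII-13-1 (0.998, a single read), and the lowest for FLG (122). The other 5 were in the EV clones: MYCT1 in EV_A replicate 1 (1.21) and EV_B replicate 4 (1.88), NKX2-1 in EV_B replicate 3 (0.951), SALL2 in EV_B replicate 4 (0.940) and SEMA3F in EV_B replicate 4 (139). All but the last rest on a few reads.

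The 2 clones with TTP differed from each other in the genes named as particular to TTP_H3, by the limma contrast of the clones. The log2 difference, TTP_H3 minus TTP_E11, was 4.36 for EDA, 4.24 for GRAMD1B, 3.69 for TESPA1, 3.25 for CHN2, 3.23 for CPVL, 3.21 for PDE9A and 3.18 for C1orf115. It was 2.65 for DACT2, 1.95 for ANO2, 1.92 for LRG1, 1.83 for ESRRG and 1.82 for NLRP2. On the lower side it was -6.43 for IGHV3-15, -4.73 for IGHV1-14, -4.70 for IGHVIII-13-1, -3.33 for KRBOX1 and -2.48 for VPS9D1-AS1. It was -1.77 for THBS2, -1.55 for SEMA3F, -1.48 for TRMT12, -1.46 for MXRA8, -1.20 for CES4A and -0.93 for SELENBP1. This contrast is part of the rule that chose the genes, so the differences are descriptions.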

How the results depend on the processing

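The number of genes particular to TTP_H3 depended most on single libraries. It was 791 without replicate 3 of TTP_H3 (451 higher, 340 lower) and 1000 without that library and EV_B replicate 4 together (563 and 437). Leaving out 1 library gave 360 to 791 such genes (234 to 451 higher, 126 to 340 lower), the lowest without TTP_E11 replicate 2; 5585 to 6176 genes outside both EV clones (2797 to 3094 and 2777 to 3082); and 9164 to 9686 called against the mean of the EV clones (4606 to 4886 and 4558 to 4800). The counts against the mean, outside and particular were 9683, 5647 and 552 with edgeR and 9454, 5569 and 539 with DESeq2. Upper-quartile scaling moved the median of all genes by 0.04 and gave 5402 higher and 4258 lower genes against the mean, and 3243 and 2435 outside both EV clones. Against EV_A alone 8173 and against EV_B alone 7175 genes lay outside. With a replicate block the counts were 9591, 5582 and 500. The replicate numbers did not pair the libraries: over 24 same-numbered pairs the correlation was -0.088 to 0.096, and 1 of 16 libraries correlated best with its own number. Sign changes of named genes were counted only where the change passed the threshold in the main fit or in the alternative. There were 6 of these: CD74 (-0.21) against EV_A alone, and ITGA10 (0.69), KRT19 (0.0219), NFKBIZ (0.22), IGHG2 (0.0846) and IGKC (-0.25) against EV_B alone. The main change is the mean of the changes against EV_A and EV_B. TTP_H3 therefore lay between the means of the EV clones, on the log2 scale, in each of these genes. Why the EV clones differed in them was not tested.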
